A study of Mus musculus with 5 samples.

Results

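A set of 10 acute-phase and STAT3-response genes was followed in the inflamed mouse colon, chosen by gene symbol and all found among the 55471 genes of the tables. They were Saa1, Saa2, Saa3, Hp, Lcn2, Socs3, Stat3, Osmr, Il1rn and Steap4. The colon pieces came from male C57BL/6 mice, 11 weeks old, and were taken on day 3 after colitis had been induced with TNBS, a hapten given to provoke colonic inflammation. Every mouse had TNBS, and the groups were vehicle (2 libraries) and propyzamide, a herbicide (3 libraries). No colon free of TNBS was analysed here. The labels name neither the segment of colon nor the dose. The labels do not say that each library came from a separate mouse, so the p-values measure only the spread between these libraries. All 10 genes passed the filter on low counts (edgeR's filterByExpr) and entered the test.

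The acute-phase response is the change in secreted proteins that follows infection or injury. Cytokines of the interleukin-6 family bind receptors that share the gp130 chain, Janus kinases then phosphorylate the transcription factor STAT3, and STAT3 acts with C/EBP factors and NF-kB on the genes of serum amyloid A, haptoglobin and others. Its target SOCS3 shuts the receptor off again. The liver makes most of the circulating proteins, but gut epithelium, fat, fibroblasts and macrophages also express several of these genes.

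Upstream sequences are shown for the serum amyloid genes, because Saa1 and Saa2 are near copies whose reads can be confused, and for Socs3 and Steap4, because they alone among the genes with a sequence hold the core STAT motif. They were taken from RefSeq on GRCm38.p6, for which 9 of the 10 genes had an entry, and run 5′ to 3′ on the strand of the gene from 250 to 51 bases before the RefSeq start. Capitals mark the STAT motif TTCNNNGAA, which reads the same on both strands, and the C/EBP-like motif TTGCNNAA, searched on both strands. The 2 motifs did not overlap in any of these windows.
Saa1, chr7:46743031-46743230, minus strand: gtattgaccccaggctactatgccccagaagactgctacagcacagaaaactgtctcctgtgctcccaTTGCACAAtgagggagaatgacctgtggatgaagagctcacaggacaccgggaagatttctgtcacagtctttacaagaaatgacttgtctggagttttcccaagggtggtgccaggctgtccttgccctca
Saa2, chr7:46751583-46751782, plus strand: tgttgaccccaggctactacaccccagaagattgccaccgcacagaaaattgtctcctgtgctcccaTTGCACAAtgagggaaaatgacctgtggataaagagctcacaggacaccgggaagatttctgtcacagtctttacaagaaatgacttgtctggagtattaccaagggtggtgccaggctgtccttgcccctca
Saa3, chr7:46715727-46715926, minus strand: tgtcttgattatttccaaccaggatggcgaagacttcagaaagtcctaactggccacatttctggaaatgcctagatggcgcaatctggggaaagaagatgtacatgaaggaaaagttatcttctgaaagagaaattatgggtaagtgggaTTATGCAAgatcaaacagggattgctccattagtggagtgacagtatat
Socs3, chr11:117969417-117969616, minus strand: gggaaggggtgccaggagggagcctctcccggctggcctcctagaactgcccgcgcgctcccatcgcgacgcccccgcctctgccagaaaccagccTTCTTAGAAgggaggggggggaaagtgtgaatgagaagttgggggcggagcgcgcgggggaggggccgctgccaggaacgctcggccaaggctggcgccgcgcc
Steap4, chr5:7960222-7960421, plus strand: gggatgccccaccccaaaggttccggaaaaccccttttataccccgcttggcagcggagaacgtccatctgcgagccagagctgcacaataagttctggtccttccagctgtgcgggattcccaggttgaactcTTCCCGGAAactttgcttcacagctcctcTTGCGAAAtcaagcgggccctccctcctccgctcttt

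Over the 250 bases before the start, the STAT motif occurred in Socs3 (TTCTTAGAA, beginning 154 bases before the start) and Steap4 (TTCCCGGAA, 116 bases before). It occurred in 7.02% of all 32851 windows of that length. The C/EBP-like motif occurred in 5 genes, namely Saa1 and Saa2 with the same letters TTGCACAA, Saa3 on the opposite strand, Lcn2 and Steap4, and in 9.56% of all windows. A match describes these letters and is not evidence of binding. The Socs3 window is counted from the RefSeq start. It lies inside the GENCODE span of Socs3, which begins at 117970047 on the minus strand. The upstream windows of Saa1 and Saa2 were 95.6% identical over 249 aligned bases, whereas that of Saa3 was 59.4% identical to that of Saa1. The coding transcripts of Saa1 and Saa2 that held their reads were 94.4% identical, with a longest identical stretch of 76 bases, so the division of reads between these genes is uncertain.

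Of the 10 genes only Hp, which encodes haptoglobin, passed the test between propyzamide and vehicle with edgeR's quasi-likelihood test. Hp was 19.0-fold higher in propyzamide. That 1 call among 10 genes stands beside 229 of 12024 genes called over the whole table, or 1.90%. Of all genes 0.690% were called as higher and 1.21% as lower, and of the 10 genes 1 and 0. Saa3 had a similar fold, but most of it came from a single library. At an unadjusted p under 0.05 there were 2 of the 10, Hp and Saa3, both higher, against 18.2% of all genes (8.52% higher and 9.65% lower). Saa1, Saa3 and Lcn2 were all highest in propyzamide replicate 2, while Stat3 itself differed by 1.11-fold. Over the 10 genes 8 estimates were positive and 2 negative, with a median log2 fold change of 0.40, against -0.018 over all genes tested and 49.1% of genes above 0. Groups in bulk tissue can differ through fewer cells of a type or through less RNA per cell, and these cannot be told apart.

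**Figure D1:**
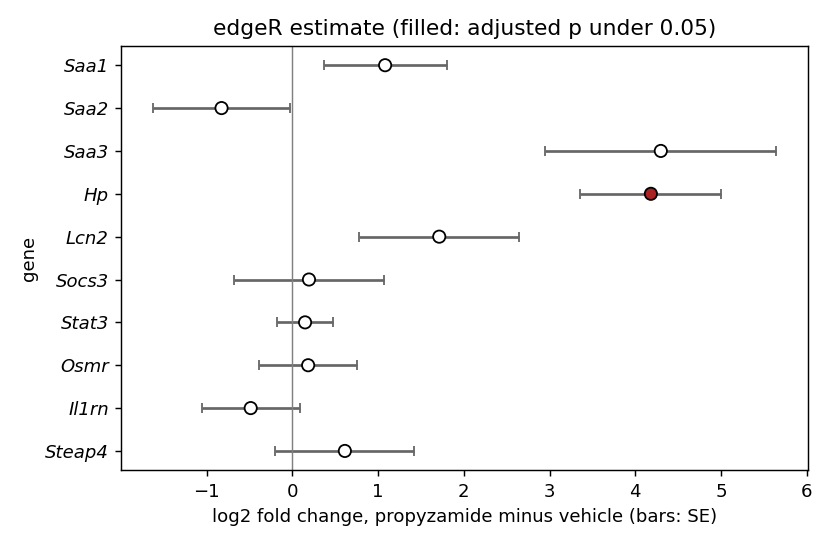
Fitted log2 fold change of each gene, propyzamide minus vehicle, with its standard error as a bar (2 vehicle and 3 propyzamide libraries). Hp, the filled point at 4.18, has an adjusted p under 0.05, and Saa3 at 4.30 has a similar estimate with a wider error.

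Library totals lay between 1573700 and 2706885 estimated counts, and 823560 to 1328836 of them remained once rRNA-like loci and mitochondrial genes were set aside. Reads on genes that the colon should not express were more frequent in vehicle. Over 1464 olfactory and vomeronasal receptor genes there were 0.911 and 0.569 counts per kilobase in vehicle, against 0.0586, 0.467 and 0.140 in propyzamide. Each group had its own second index sequence in the file names, with 0 shared between groups, so that index and treatment cannot be told apart.

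Serum amyloid A proteins are small apolipoproteins that climb steeply in inflammation. Saa1, on chromosome 7 from 46740497 to 46742980, was the most abundant of the 10 genes per length in every library. Vehicle had TPM values of 505 and 611, and propyzamide 959, 1834 and 199.7. The highest and the lowest library were thus both from propyzamide, replicates 2 and 3, and the groups overlapped. CPM (counts scaled to library size, with TMM factors) gave the same overlap, at 245 ± 159 in vehicle (SD, n = 2) and 519 ± 472 in propyzamide (SD, n = 3). Fitted over all 5 libraries, Saa1 had a log2 fold change of 1.08 ± 0.72 (SE), with an edgeR adjusted p of 0.469. Leaving out propyzamide replicate 2 brought it to 0.067 (edgeR adjusted p = 0.976), and leaving out vehicle replicate 2 to 2.02 (edgeR adjusted p = 0.467).

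Saa2, the neighbouring near copy (chromosome 7 from 46751790 to 46754313), was assigned only 10 and 13 counts under vehicle, against 9, 9 and 3 with propyzamide. Per length this gave 13.3 and 10.45 TPM in vehicle, against 6.96, 7.20 and 2.16 TPM with propyzamide. Saa1 therefore carried nearly all reads of the pair in each library. The log2 fold change of Saa2 was -0.83 ± 0.80 (SE; edgeR adjusted p = 0.643), with overlapping CPM. With both genes summed to 1 feature the estimate was 1.06 (edgeR adjusted p = 0.480), close to that of Saa1 alone.

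Saa3, an isoform made outside the liver by macrophages, fat and epithelium (chromosome 7 from 46711998 to 46715700), was dominated by propyzamide replicate 2. Vehicle libraries had 1.65 and 6.24 CPM, and propyzamide libraries 4.08, 202 and 19.5 CPM. Propyzamide replicate 1 lay within the vehicle range, and only replicates 2 and 3 stood above it. Saa3 was estimated at a log2 fold change of 4.30 ± 1.35 (SE), with an edgeR adjusted p of 0.116, so that the 19.0-fold difference in mean CPM did not pass. Without propyzamide replicate 2 it was 1.56 (edgeR adjusted p = 0.434), and without propyzamide replicate 1 it was 4.83 and passed (edgeR adjusted p = 0.0138). It also passed with no filter on low counts (edgeR adjusted p = 7.6e-12). That fit used the same 5 libraries but had a smaller SE for Saa3, at 0.56, and called 1327 of 37309 genes. DESeq2 did not call Saa3 (DESeq2 adjusted p = 0.178), and it passed in 3 of 16 alternatives.

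The few vehicle reads of Saa3 were of mixed kind. All 11 counts in vehicle replicate 2 were assigned to a processed transcript without a coding sequence, and of the 4 in replicate 1, 2 fell on the main coding transcript Saa3-201. Propyzamide replicates 2 and 3 had 392 and 32 counts on Saa3-201. The receptor-gene rate predicts 2.00 and 1.25 background counts for the longest Saa3 transcript in the vehicle libraries, so the vehicle level was 2.00 and 8.78 times that rate. For Lcn2, Osmr and Stat3 the share of reads on coding transcripts was lower in both vehicle libraries than in any propyzamide library. The share overlapped between the groups for Saa1, Saa2, Hp and Il1rn, and was 100% in every library for Socs3 and Steap4. For Saa3 the share was 100% in vehicle replicate 1 and 0% in replicate 2. How many of all genes had a lower share in vehicle was not computed. The part of background reads in these results was not tested.

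**Figure D2:**
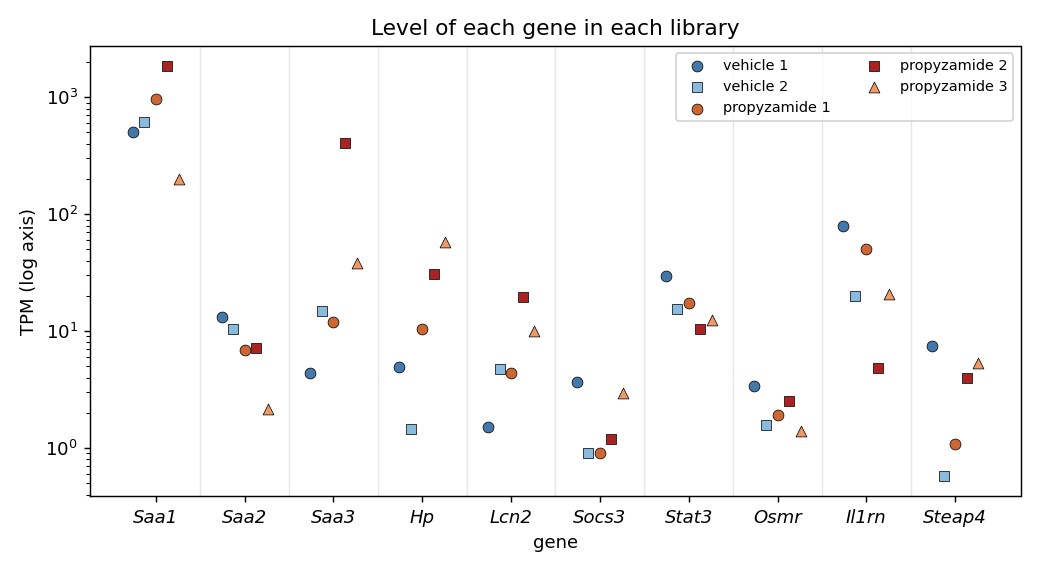
TPM of the 10 genes on a log axis, with a point for each of the 5 libraries. Saa1 lies between 199.7 and 1834, and the point for propyzamide replicate 2 stands far above the other libraries in Saa3, at 409 TPM.

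Haptoglobin binds free haemoglobin and limits oxidative damage. Hp (chromosome 8 from 109575128 to 109579172) had 7 and 4 counts under vehicle, against 34, 90 and 147 with propyzamide. On the CPM scale vehicle stood at 2.90 and 2.27, and propyzamide at 11.6, 46.2 and 89.5. Every propyzamide library lay above both vehicle libraries. Such a separation held for 2 of the 10 genes, Hp and Stat3, and for 37.5% of all genes tested (16.7% higher, 20.8% lower). Mean CPM was 2.58 ± 0.442 in vehicle (SD, n = 2) and 49.1 ± 39.0 in propyzamide (SD, n = 3). The fitted log2 fold change was 4.18 ± 0.82 (SE), with an edgeR adjusted p of 0.0283. In propyzamide all reads fell on the coding transcript Hp-201. Hp no longer passed when vehicle replicate 1 was left out (edgeR adjusted p = 0.293), nor when vehicle replicate 2 (0.195) or propyzamide replicate 3 (0.0714) was. It also did not pass with protein-coding transcripts alone (edgeR adjusted p = 0.112), or with limma at a TPM pseudocount of 0.1, at an adjusted p of 0.0538. The estimate stayed between 2.87 and 4.62 over the 16 alternatives.

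Some adipocyte markers were high in the same libraries as Hp and others were not. The summed level over 10 genes was 47.1 and 57.3 CPM in vehicle and 78.5, 130 and 356 CPM in propyzamide. Propyzamide replicate 3 was thus highest in both this sum and Hp, and Cfd alone made up 192 CPM of that library's sum. That library was also highest in the hepatocyte, fibroblast, macrophage and smooth muscle sums. Of all genes tested 0.690% were called as higher by edgeR. Of the 4 adipocyte markers tested, Cfd and Cidec rose, with log2 fold changes of 5.90 ± 1.29 (SE) and 4.17 ± 0.81 (SE) and edgeR adjusted p of 0.0417 and 0.0277. Neither passed when either vehicle library or propyzamide replicate 3 was left out (edgeR adjusted p 0.0599 to 0.364), nor with protein-coding transcripts alone (0.133 and 0.112). Cidec also did not pass without propyzamide replicate 2 (edgeR adjusted p = 0.0505) or with limma at TPM pseudocounts of 1 and 0.1 (limma adjusted p = 0.0569 and 0.112). DESeq2 called Cidec and Fabp4 but not Cfd (DESeq2 adjusted p = 0.0589). Adipoq, which encodes adiponectin, had 1 and 3 counts under vehicle, against 3, 7 and 49 with propyzamide. Plin1, Lep and Adrb3 were instead lower in every propyzamide library than in either vehicle library, but none had enough counts to be tested. Among the genes that could be tested, 20.8% lay lower without overlap in the same way. These markers had at most 12 counts in any library, and the vehicle libraries also had more reads on receptor genes. Whether the marker reads in vehicle were background was not tested. Plin1, a lipid droplet protein, had 6 and 5 counts under vehicle and 1, 0 and 2 with propyzamide. Lep, which encodes leptin, had 6 and 3 counts against 0 in all 3 propyzamide libraries, and the adrenergic receptor gene Adrb3 had 6 and 12 against 0, 2 and 0. Hepatocyte markers were nearly absent: Alb had 0 counts in 4 libraries and 2 in propyzamide replicate 3, and Apoh and Hamp had 0 in all 5. Their sum of 6.80 to 82.8 CPM came mainly from Cyp2e1 and Tat, with Cyp2e1 at 73.1 CPM in propyzamide replicate 3. The part of fat cells in the Hp result was not tested.

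Lipocalin-2 (Lcn2, chromosome 2 from 32384633 to 32388252) withholds iron by binding bacterial siderophores and is used as a marker of intestinal inflammation. It was low in every library, at 1.51 and 4.74 TPM in vehicle and 4.41, 19.65 and 9.96 TPM in propyzamide. As with Saa3, propyzamide replicates 2 and 3 were the highest, and replicate 1 lay within the vehicle range. These values rest on 2 and 10 counts under vehicle, against 9, 36 and 16 with propyzamide. Lcn2 thus had a log2 fold change of 1.71 ± 0.93 (SE), with an edgeR adjusted p of 0.360. Leaving out vehicle replicate 1 gave 0.83, and leaving out vehicle replicate 2 gave 3.60 (edgeR adjusted p = 0.826 and 0.344). On coding transcripts Lcn2 had 1 and 3.32 counts under vehicle, against 9, 34.55 and 16 with propyzamide.

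**Figure D3:**
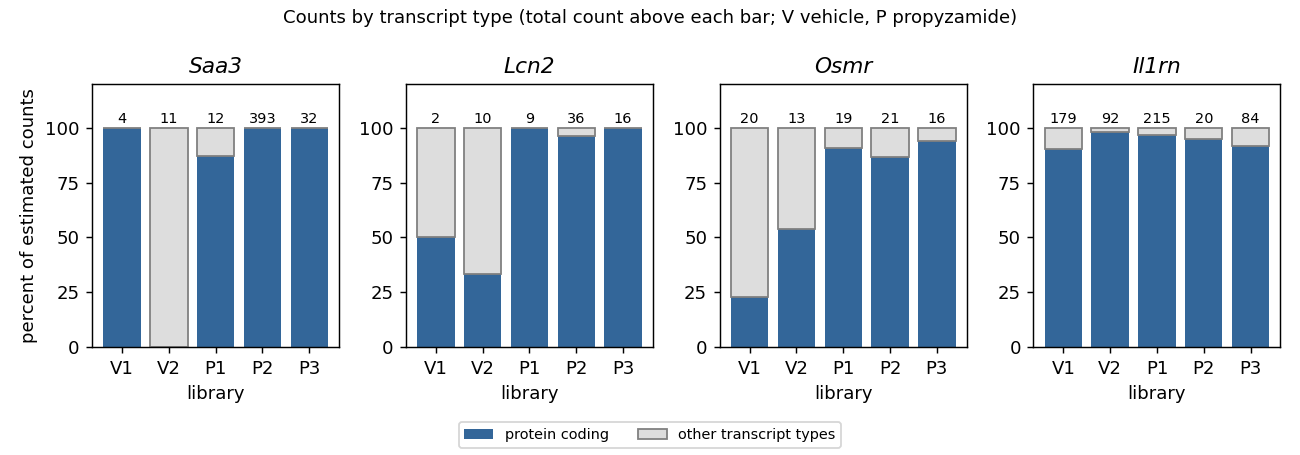
Percent of the estimated counts of Saa3, Lcn2, Osmr and Il1rn on protein-coding and other transcripts in each library, with the total count above the bar. In vehicle 22.9% and 53.8% of the Osmr counts were on coding transcripts, against 86.5% to 93.75% in propyzamide.

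The signalling genes differed less. Stat3 (chromosome 11 from 100885098 to 100939540) stood at 55.8 and 51.1 CPM in vehicle and at 61.2, 57.5 and 59.1 CPM in propyzamide. The groups did not overlap in CPM, but the log2 fold change was 0.15 ± 0.33 (SE; edgeR adjusted p = 0.868). On the TPM scale the groups overlapped and the means stood the other way, with 29.6 and 15.55 in vehicle (mean 22.6) against 17.3, 10.5 and 12.45 in propyzamide (mean 13.4). A fit with limma on log2(TPM + 1) gave -0.67, at an adjusted p of 0.708, where the median of all genes was -0.39. The difference in Stat3 passed on neither scale. Osmr (chromosome 15 from 6813577 to 6874969), the receptor chain for oncostatin M, had 20 and 13 counts under vehicle, against 19, 21 and 16 with propyzamide. Its estimate was 0.18 ± 0.57 (SE; edgeR adjusted p = 0.912). With limma on log2(TPM + 1) it was -0.20, in a fit where the median of all genes was -0.39. With coding transcripts alone the estimate was 1.25 (edgeR adjusted p = 0.511), from 4.58 and 7 counts in vehicle against 17.3, 18.2 and 15 in propyzamide. The retained-intron transcript Osmr-205 held 13 and 3 counts in vehicle, against 0, 0 and 1 with propyzamide.

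Socs3, the STAT3-induced inhibitor of gp130 signalling (chromosome 11 from 117966079 to 117970047), was near the limit of detection. It had 13 and 5 counts under vehicle, against 6, 7 and 15 with propyzamide, or 5.38 and 2.84 CPM against 2.04, 3.59 and 9.13 CPM. Each group thus held a low and a high library, and the spread within groups exceeded the difference between them. Socs3 had a log2 fold change of 0.19 ± 0.87 (SE; edgeR adjusted p = 0.939), which became -0.11 when vehicle replicate 2 was left out and -0.23 with limma on log2(TPM + 1), above the all-gene median of -0.39 in that fit.

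Steap4, a metalloreductase induced by inflammatory cytokines (chromosome 5 from 7960457 to 7982213), showed the same kind of split. Vehicle libraries stood at 13.6 and 2.27 CPM, and propyzamide libraries at 3.06, 14.9 and 20.7 CPM. Vehicle replicate 1 and propyzamide replicates 2 and 3 were high, and vehicle replicate 2 and propyzamide replicate 1 were low. Steap4 had a log2 fold change of 0.61 ± 0.81 (SE; edgeR adjusted p = 0.755). Leaving out vehicle replicate 1 gave 2.42 (edgeR adjusted p = 0.552), and leaving out vehicle replicate 2 gave -0.067 (edgeR adjusted p = 0.989).

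Il1rn encodes the interleukin-1 receptor antagonist, which blocks interleukin-1 signalling (chromosome 2 from 24336853 to 24351494). It stood at 74.0 and 52.2 CPM in vehicle, against 73.1, 10.3 and 51.1 CPM with propyzamide. Propyzamide replicate 2, the library highest in Saa1, Saa3 and Lcn2, was the lowest in Il1rn, while the other propyzamide libraries lay close to vehicle. Il1rn had a log2 fold change of -0.49 ± 0.57 (SE; edgeR adjusted p = 0.716), which became -0.031 when propyzamide replicate 2 was left out and -1.10 when replicate 1 was. The counts fell mainly on the coding transcripts Il1rn-204 and Il1rn-201. Il1rn-204 had the larger estimated count in both vehicle libraries (117 against 31.1, and 51.2 against 37.4) and in propyzamide replicate 3 (47.15 against 29.8). In propyzamide replicates 1 and 2 Il1rn-201 was the larger, at 115 against 87.65 and 14.2 against 4.76.

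**Figure D4:**
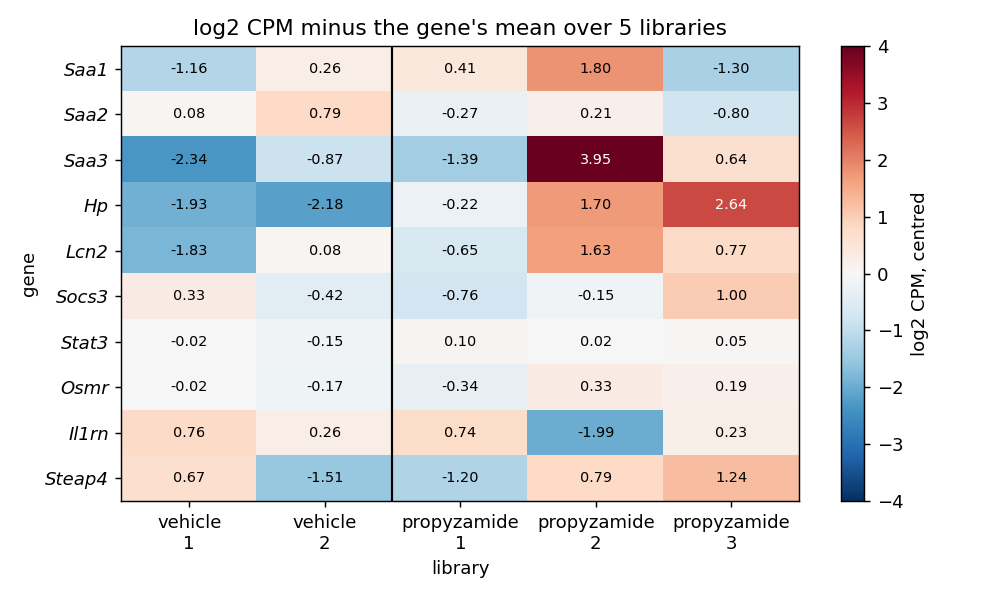
Each gene's log2 CPM minus its mean over the 5 libraries. Propyzamide replicate 2 is the high library for Saa1 (1.80), Saa3 (3.95) and Lcn2 (1.63) and the low library for Il1rn (-1.99), whereas Stat3 stays between -0.15 and 0.10.

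Other cell types differed between the libraries beside these genes. Fibroblast markers summed to 477 and 348 CPM in vehicle and to 358, 923 and 1082 CPM in propyzamide, and monocyte and macrophage markers to 124 and 99.3 CPM against 55.4, 173 and 315 CPM. Propyzamide replicates 2 and 3, which were high in Saa3, Hp, Lcn2 and Steap4, were the highest in both sums. Lyz2, which encodes lysozyme, made up 107 and 181 CPM of the macrophage sum in these libraries. C1qb, Csf1r and Adgre1 were also highest in propyzamide replicate 3, and Mrc1 in replicate 2. Cd68, Itgam and Ly6c2, which had too few counts to be tested, were lower in every propyzamide library than in either vehicle library. Such a separation downward held for 20.8% of all genes tested. Of the 7 macrophage markers tested 5 estimates were positive and 2 negative. Smooth muscle markers summed to 534 and 3581 CPM in vehicle and to 6110, 9585 and 10283 CPM in propyzamide, and epithelial markers stayed between 6369 and 9330 CPM. Of the 12 neutrophil markers, Mpo, Ngp and Camp had 0 counts in all 5 libraries and S100a8 and S100a9 had at most 10 counts in any library. The sum over the 12 genes was 105 and 332 CPM in vehicle, against 96.5, 32.3 and 23.1 CPM with propyzamide, with no overlap. It was almost wholly Ly6g, a neutrophil surface protein, at -2.08 ± 0.59 (SE; edgeR adjusted p = 0.0835), which DESeq2 called lower (-2.10, DESeq2 adjusted p = 0.0186). S100a8 and S100a9 had 0 counts in vehicle replicate 1, where Ly6g had 247. Which cells gave the Ly6g reads was not tested, so the sum is not a measure of neutrophils. Of the epithelial, fibroblast, macrophage and smooth muscle markers tested (12, 10, 7 and 10 genes), edgeR called 0. Of these lists 4, 2, 0 and 9 genes had an unadjusted p under 0.05, and 2, 1, 0 and 6 were called by DESeq2. Over all genes 18.2% had such an unadjusted p, and DESeq2 called 565 of 12024. The median log2 fold change of the smooth muscle markers was 2.17, against 4.03 without vehicle replicate 2 and 1.33 without vehicle replicate 1. Leaving out propyzamide replicate 1, edgeR called 2 higher for smooth muscle, 2 higher for fibroblasts and 1 lower for epithelium. Over all genes that fit called 214 higher and 285 lower of 11173. The part of these cell types in the results was not tested.

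**Figure D5:**
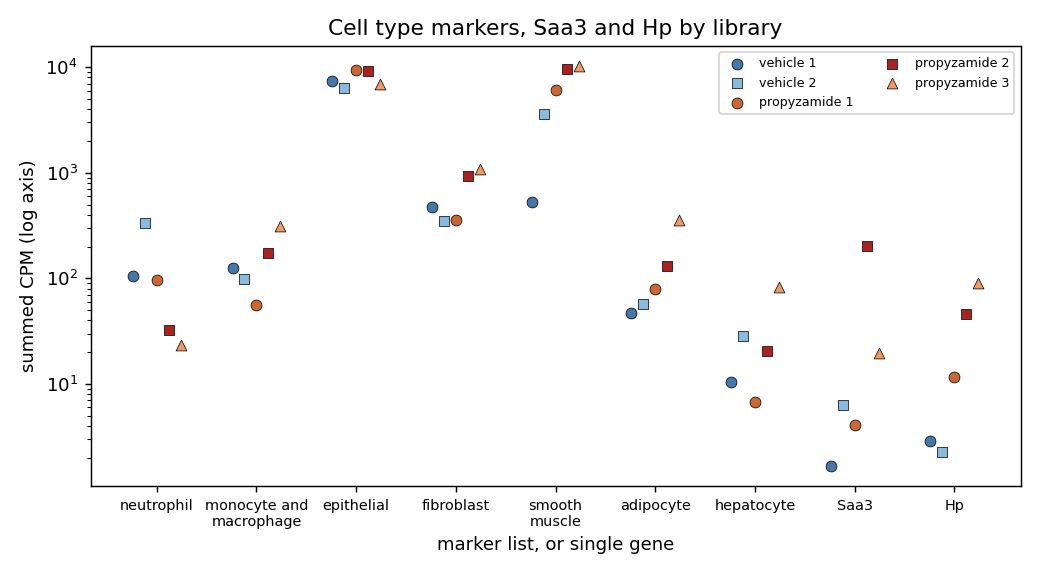
Summed CPM of 7 cell type marker lists and the CPM of Saa3 and Hp, on a log axis with a point per library. Hp and the adipocyte, hepatocyte, fibroblast, macrophage and smooth muscle sums are all highest in propyzamide replicate 3. The neutrophil sum is lowest there, and the epithelial sum stays between 6369 and 9330 CPM.

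The ligands that drive STAT3 were hardly detected. None of 13 genes of the interleukin-6 family and related cytokines passed the filter on low counts. Il6 had 8 and 5 counts under vehicle, against 0, 1 and 0 with propyzamide, and Osm had 5 and 0 against 0, 0 and 0. The highest of these values, Clcf1 in vehicle replicate 1, was 5.38 CPM. The summed level of the 13 genes was 26.5 and 14.8 CPM in vehicle and 3.74, 3.08 and 2.44 CPM in propyzamide. Cntf was the exception in direction, with 0 counts in both vehicle libraries and 1, 2 and 2 in propyzamide. The vehicle libraries were also those with more reads on receptor genes.

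Among receptors that signal to STAT3, edgeR called 0 of 7 tested, with a median log2 fold change of -0.61. A single one, Il10rb, had an unadjusted p under 0.05, against 18.2% of all genes tested, and none passed with DESeq2. The median was 0.24 over the 5 genes left at 10 CPM in 2 libraries, and -0.18 without vehicle replicate 2. Il10rb, a chain shared by the receptors for interleukin-10 and interleukin-22, stood at -0.83 ± 0.35 (SE; edgeR adjusted p = 0.235). Il22ra1, Il6st, which encodes gp130, and Il11ra1 stood at -1.09, 0.66 and 0.82 (edgeR adjusted p 0.435 to 0.483). Of 9 Janus kinases and STATs tested edgeR and DESeq2 each called 0, and 2 had an unadjusted p under 0.05 (18.2% over all genes). Stat5a stood at -1.58, Jak2 at 0.96 and Stat2 at -1.09 (edgeR adjusted p 0.255 to 0.315). The median of these 9 was -0.30. Of 16 STAT inhibitors and phosphatases tested both tools called 0, and 2 had an unadjusted p under 0.05 (again beside 18.2% over all genes). Socs4 stood at 1.18, Cish at -1.26, Socs1 at -1.79 and the phosphatase Ptpn11 at 0.72, with edgeR adjusted p of 0.127, 0.254, 0.278 and 0.388, and the list's median was -0.16.

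In the list of 25 STAT3 target genes 20 were tested. Among these 2 rose and 0 fell, where 0.690% of all genes tested were called as higher and 1.21% as lower. The list's median was 0.39. Both that rose encode antimicrobial lectins of gut epithelium. Reg3b had 0 counts in both vehicle libraries, against 77, 226 and 312 with propyzamide (edgeR adjusted p = 0.00605). Reg3g had 5 and 0 counts under vehicle, against 49, 118 and 61 with propyzamide, a log2 fold change of 4.96 ± 0.84 (SE; edgeR adjusted p = 0.0149). Leaving out vehicle replicate 1 ended both calls (edgeR adjusted p = 0.0619 and 0.0537), and leaving out vehicle replicate 2 ended that for Reg3g (0.0995). DESeq2 called Fos and Muc1 as well, at 1.55 and -3.66. With edgeR they stood at 1.53 and -3.57 (edgeR adjusted p = 0.0785 and 0.0508). Muc1 had 31 and 22 counts under vehicle, against 5, 2 and 0 with propyzamide. Among other alternatives, 1 gene of the list was called lower with upper-quartile scaling, with both limma fits and with protein-coding genes only. The same held with no filter on low counts, with rRNA-like and mitochondrial genes removed, with a replicate block and without propyzamide replicate 1. Over all genes these fits called between 185 of 10821 (protein-coding genes only) and 877 of 37309 (no filter) as lower. The C/EBP genes of the list, Cebpb and Cebpd, had 0 and 2 counts against 5, 9 and 2, and 21 and 18 counts against 28, 31 and 35. When log2(TPM + 1) was tested with limma, the list's median was -0.084 and that of all genes was -0.39.

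Of 33 other acute-phase genes only 10 could be tested. The liver-type members Crp, Apcs, Orm1, Hpx, Fga, Fgb and Fgg had at most 4 counts in any library. EdgeR called 0 of the 10, with 5 at an unadjusted p under 0.05, all higher in propyzamide, a share that was 8.52% over all genes. DESeq2 called Serpina3n and Mt1. Serpina3n, a serine protease inhibitor, stood at 2.53 ± 0.68 (SE; edgeR adjusted p = 0.0697), from 4.96 and 1.13 CPM to 10.5, 22.6 and 23.7 CPM. The metallothioneins Mt2 and Mt1 stood at 1.52 and 1.36 (edgeR adjusted p = 0.105 and 0.126). Complement C3 was at 57.5 and 7.38 CPM in vehicle and 31.6, 466 and 182 CPM in propyzamide (edgeR adjusted p = 0.152), highest in the library that was highest in Saa3. The list's median of 0.61 was 0.30 without vehicle replicate 2 and 0.095 with protein-coding transcripts alone. With no filter on low counts it was -0.13 over 30 genes, where the median of all genes was -1.14.

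Around Il1rn, edgeR called 0 of 9 genes of the interleukin-1 family and its signalling chain, and DESeq2 called Il18. An unadjusted p under 0.05 was seen for Il18 and Irak2, and for 18.2% of all genes tested. Il18, an epithelial cytokine, stood at -1.82 ± 0.48 (SE; edgeR adjusted p = 0.0674), from 77.8 and 56.2 CPM to 33.0, 8.73 and 14.0 CPM. Irak2, Myd88 and Il33 stood at -1.48, -1.10 and 1.16 (edgeR adjusted p 0.177 to 0.603). Il1b itself had 3 and 1 counts under vehicle, against 3, 0 and 6 with propyzamide. The list's median was -0.25, and 0.068 without vehicle replicate 1.

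Around Lcn2 and Steap4, the list of iron handling and STEAP genes had 10 tested genes with a median of -0.38. Of these 1 fell and 0 rose, where 1.21% of all genes tested were called as lower and 0.690% as higher. The gene that fell was Slc40a1, which encodes ferroportin, the cellular iron exporter. It went from 161 and 184 CPM in vehicle to 50.6, 46.7 and 60.3 CPM in propyzamide, a log2 fold change of -1.72 ± 0.33 (SE; edgeR adjusted p = 0.0272). Leaving out vehicle replicate 1, vehicle replicate 2 or propyzamide replicate 3 ended the call (edgeR adjusted p = 0.128, 0.152 and 0.0742). So did limma on TPM with pseudocounts of 1 and 0.1 (limma adjusted p = 0.0704 and 0.113). Tfrc, the transferrin receptor, stood at 1.01 ± 0.35 (SE; edgeR adjusted p = 0.155) and the STEAP relatives Steap2, Steap3 and Steap1 at -0.73, -0.69 and -0.43.

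Genes with the most similar profile over the 5 libraries were sought for Saa3, Lcn2 and Socs3 among 10959 protein-coding genes, by the Euclidean distance between centred log2 CPM values. For Lcn2 these were Dpt, which encodes the matrix protein dermatopontin, at a distance of 0.28, Mustn1 at 0.36 and Hnmt at 0.37. Dpt had 4.96 and 17.0 CPM in vehicle and 11.9, 54.9 and 28.0 CPM in propyzamide, the same order of libraries as Lcn2. For Saa3 the nearest were farther away, with Ccdc152 at 1.84, Epha7 at 1.99 and Cpe at 2.00. For Socs3 they were Slc26a11 at 0.27, Adamts19 at 0.30 and Ift22 at 0.38. These likenesses rest on 5 libraries and are a description.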

How the data were processed

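RNA was extracted with Trizol from frozen colon pieces and made into libraries by the SMART-Seq2 method, per the labels' protocols. For every transcript the authors deposited an estimated count, a TPM, an FPKM and its percent of the gene's expression, per the file headers. Only the deposited estimated count and TPM columns were used. The submitters' processing notes name RSEM, kallisto and GRCm38, with neither version nor role. The release of the annotation and any strand setting were not given in the sources used here. Without molecular identifiers, amplified copies count as separate reads.

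Estimated counts and TPM of 142647 transcripts were summed to 55471 genes, and counts were rounded. Symbols were found for 99.4% of genes, with coordinates from GENCODE M21 (GRCm38). Genes were tested with edgeR 4.0.16 in R 4.3.3 (filterByExpr, TMM, quasi-likelihood test, Benjamini-Hochberg adjustment over 12024 genes, threshold 0.05). CPM used TMM-scaled library sizes, on which 1 count equals 0.340 to 0.609 CPM, and the SE came from the F statistic. Alternatives used limma 3.58.1 and DESeq2 1.42.0. Over all genes the median fold change on the log2 scale was -0.39 with limma on log2(TPM + 1), -0.47 on log2(TPM + 0.1) and -0.14 with upper-quartile scaling, against -0.018 with edgeR.

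On simulated counts for 12024 genes, 7.46%, 52.2% and 81.8% of genes changed 2-fold, 4-fold and 8-fold were recovered, and 6.93% of calls were false. The simulated libraries had no unequal background and no set of genes that peaked together in a library, so these shares need not hold for the real libraries. The 10 genes and all lists were chosen with earlier results of these data known. Named genes were the 10, the genes past the threshold in each pathway list or otherwise up to 4 of smallest p, and the 3 nearest profiles. A list gene under this rule is not reported here. Others were named after their values were seen: the ligands and liver-type genes with few counts, single cell type markers, Cntf, C3, Cebpb, Cebpd, Il1b, Tfrc, the STEAP relatives and genes called by DESeq2. Within a group the chi-square per degree of freedom between libraries was 16.0 to 31.6, so no pair was the same library sequenced again. That check cannot show whether the libraries came from separate mice.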

Additional observations from a re-analysis of the deposited data

How the results depend on the processing

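Over all genes 229 passed in the test as reported (83 higher, 146 lower, 63.8% lower). The count was 565 with DESeq2, 1327 with no filter on low counts, 148 at 10 CPM in 2 libraries, 490 with limma on log2(TPM + 1), 362 with rRNA-like and mitochondrial genes removed, 36 with protein-coding transcripts only (chosen after seeing the data) and 657 at an adjusted p under 0.1. It ranged from 36 to 499 when a library was left out, at 36 and 55 without vehicle replicates 1 and 2, and 499 and 78 without propyzamide replicates 1 and 3. With 1 vehicle library left, that library is assumed to vary like the propyzamide libraries. The share lower was 74.8% with upper-quartile scaling and 86.5% with limma on log2(TPM + 1). Of the 10 genes 1 passed, against 2 with no filter on low counts, 0 with limma on log2(TPM + 0.1), 0 with protein-coding transcripts only, and 0 to 2 when a library was left out.

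Estimates changed sign, without passing, for Socs3 (-0.23 and -0.30), Stat3 (-0.67 and -0.70) and Osmr (-0.20 and -0.27) with limma on log2(TPM + 1) and log2(TPM + 0.1). In these fits the median of all genes was also lower, at -0.39 and -0.47, so Socs3 and Osmr lay above it and Stat3 below it. Without a library Socs3 ranged from -0.11 to 0.73 and Steap4 from -0.067 to 2.42. Saa1, Saa3, Hp, Lcn2, Saa2 and Il1rn kept their sign in every alternative that tested them (13 to 16). Lcn2, Saa2, Socs3 and Osmr dropped below the filter in some.

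With the replicate block, which pairs libraries by the number in their titles, 639 of 12024 genes and 3 of the 10 passed. The 3 were Saa1 at 1.56, Saa3 at 3.97 and Hp at 3.13, where Hp had 4.18 without the block. Of 10 smooth muscle markers 9 passed, and Socs3 stood at -0.58. Propyzamide replicate 3 has no vehicle library of its number, so it adds nothing to the estimated difference in this fit. Nothing in the labels says that the numbers pair the libraries. Deviations from the group mean correlated over genes at 0.17 and 0.15 for the 2 pairs of same-numbered libraries. With 2 vehicle libraries these deviations mirror each other, so vehicle replicate 2 with propyzamide replicate 1 gave -0.17. The values are not independent and cannot decide whether the numbers pair the libraries.

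Depth limits the low genes: 3 counts equal 1.02 to 1.83 CPM in a library, so Socs3, Saa2 and the vehicle levels of Saa3, Hp and Lcn2 lie close to the floor, for counting error only.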
